A study of Mus musculus with 12 samples.

Results

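The genes described here were the constitutive androstane receptor (CAR, encoded by Nr1i3), cytochrome P450 oxidoreductase (Por), and 8 cytochrome P450 genes linked to CAR: Cyp2b9, Cyp2b10, Cyp2b13, Cyp2c29, Cyp2c37, Cyp2c50, Cyp2c54 and Cyp2c55. They were chosen by symbol, with earlier results of these data known, and are 10 of 49398 genes in the deposited gene table. All 10 passed the filter on low counts, which 13814 genes passed in all. The livers came from wild-type C57BL/6J mice, 9 months old, fed AIN-93G chow for 8 weeks with a fish oil concentrate of very-long-chain polyunsaturated fatty acids (VLCPUFA) making up 5% or 1% of the diet by weight, or with none (control). Each diet had 4 libraries, each labelled as a different animal, 2 from females and 2 from males. All mice were fasted for 5 hours before the liver was taken.

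CAR is a nuclear receptor of hepatocytes that responds to drugs and other foreign compounds as well as to endogenous molecules. When activated it moves to the nucleus, pairs with the retinoid X receptor and switches on genes of oxidation, conjugation and export. Cyp2b10 is the classic marker of CAR activity in mouse liver, Cyp2c29, Cyp2c37, Cyp2c50, Cyp2c54 and Cyp2c55 are enzymes of the Cyp2c family that oxidise drugs and polyunsaturated fatty acids, and Por hands electrons to all microsomal P450 enzymes. Cyp2b9 and Cyp2b13 are known as female-biased genes of mouse liver.

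Library totals ran from 5291385 to 15674130 estimated reads. The share of reads in long noncoding genes was 1.24% to 1.91% in 4 libraries, all of them female (both on 1% oil, 1 on 5% oil and 1 control), and 0.646% to 1.06% in the other 8. Hepatocyte marker genes were abundant in every library, with a summed level of 100000 to 196000 CPM (reads of a gene scaled to the size of its library, with TMM factors). Red blood cell markers summed to 85.0 to 152 CPM in 5% livers and 193 to 383 CPM in control livers, and 1 of 4 passed the test; their part in the results was not tested. Markers of adipose tissue or pancreas summed to 11 to 12.7 CPM in 5% livers and 16.5 to 37.2 CPM in control livers; 1 of 5 could be tested and passed, Prss2 was at 0, and their part in the results was not tested. None of the markers of hepatocytes, macrophages, endothelium, stellate cells, cholangiocytes, lymphocytes or small intestine that could be tested passed the test between 5% oil and control. In whole liver, fewer cells of a type and less RNA per cell cannot be told apart.

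With 5% oil, Cyp2c29 and Cyp2b10 rose against control livers, Cyp2c29 by 1.71 ± 0.31 and Cyp2b10 by 2.54 ± 0.51 on the log2 scale (± SE, 4 libraries per diet), and no gene of the 10 fell. The other Cyp2c genes and Por stood higher as well but did not pass the test, and Nr1i3, Cyp2b9 and Cyp2b13 did not pass in either direction. The test was edgeR's 2-sided quasi-likelihood test with sex in the fit, at an adjusted p of 0.05 over the 13814 genes tested. Against this count of 2 of 10, 2.46% of all genes tested passed, 1.19% of them upward. The median log2 fold change of the 10 genes was 0.97, against 0.01 for all genes tested. Within females and within males alike, 7 of the 10 genes (Por, Cyp2b10, Cyp2c29, Cyp2c37, Cyp2c50, Cyp2c54 and Cyp2c55) were higher in both 5% livers than in both control livers, a pattern seen in 6.12% of all genes tested. In Cyp2c29 and Cyp2c55 every 5% library lay above every control library regardless of sex, as in 3.11% of all genes.

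With 1% oil, no gene of the 10 passed the test against control (lowest adjusted p 0.0564, for Por, by edgeR's quasi-likelihood test), and 0.224% of all genes tested passed; 2 of the 10 had an unadjusted p under 0.05, as did 11.1% of all genes. DESeq2, limma voom and limma on the deposited CPM each called 1 of the 10, Por, and 266, 42 and 54 genes in all. The median log2 fold change of the 10 genes was 0.06, against 0.00063 for all genes tested. Por was the 1 gene higher in both 1% livers than in both control livers within each sex, as were 4.57% of all genes. Between the doses, 5% against 1% oil, Cyp2c29 passed (1.33% of all genes did), and 9 of the 10 estimates were above 0. Cyp2c29, Cyp2c50 and Cyp2c55 were higher in both 5% livers than in both 1% livers within each sex, as were 9.4% of all genes. These 3 comparisons share libraries, so they are given side by side and not as separate evidence.

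**Figure D1:**
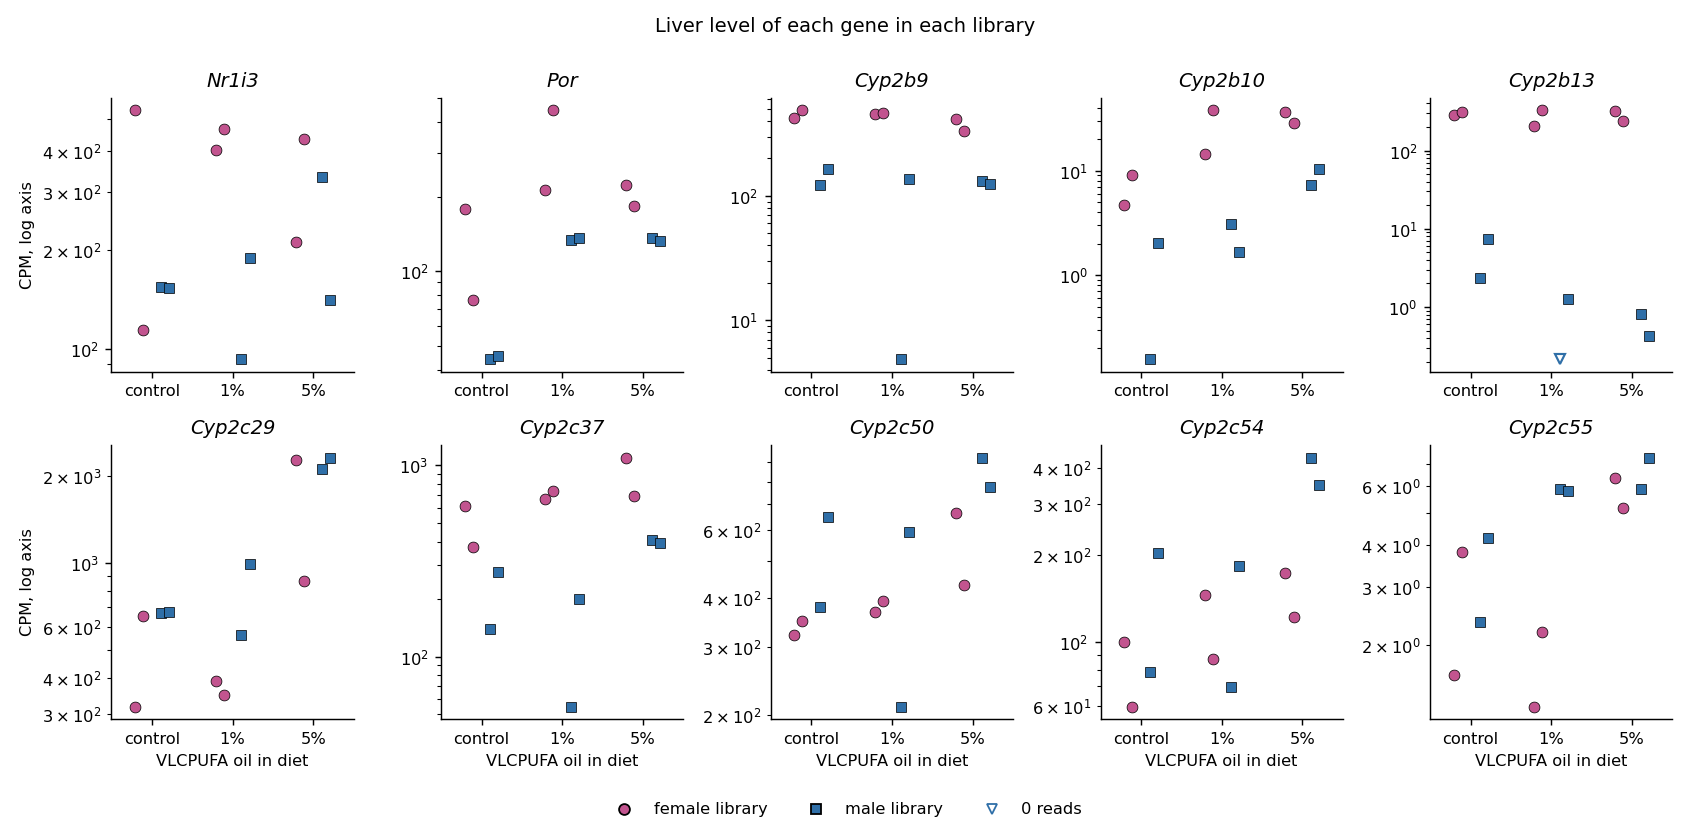
Level of each of the 10 genes in each library, in CPM on a log axis, by percent of VLCPUFA oil in the diet; circles are female livers, squares male livers, and the open triangle a library with 0 reads, drawn below the lowest value. Cyp2c29 lies at 865 to 2312 CPM in the 5% libraries and at 317 to 674 CPM in the control libraries.

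**Figure D2:**
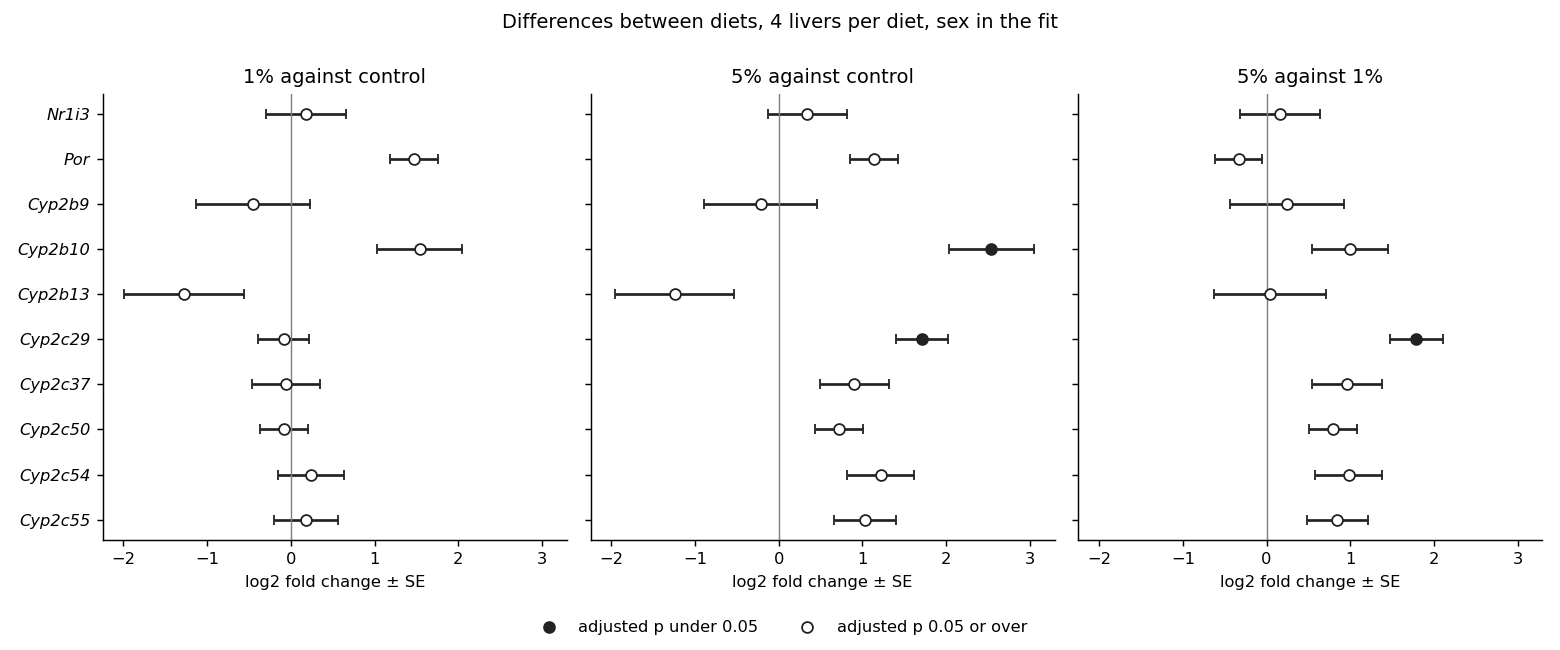
Log2 fold change of each gene with its standard error for 1% against control, 5% against control and 5% against 1% oil; filled points passed an adjusted p of 0.05. Cyp2b10 (2.54) and Cyp2c29 (1.71) are filled in 5% against control, Cyp2c29 alone in 5% against 1%, and none in 1% against control.

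Nr1i3, the receptor itself, showed no detectable change with diet. Its level was 532.9 and 114.4 CPM in control females and 153.8 and 153.2 CPM in control males, 403.5 and 466.3 CPM in 1% females and 93.0 and 188.7 CPM in 1% males, and 211.9 and 433.8 CPM in 5% females and 334.1 and 141.0 CPM in 5% males. The diets overlapped fully, and the spread inside a diet exceeded any difference between diets. The log2 fold change was 0.34 ± 0.48 for 5% against control (adjusted p = 0.832) and 0.18 ± 0.48 for 1% against control (adjusted p = 0.914), both by edgeR's quasi-likelihood test.

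Taken over all 12 libraries, the level of Nr1i3 moved with the share of reads in long noncoding genes. The 4 libraries with the highest share, all female, held 403.5 to 532.9 CPM of Nr1i3, above the 93.0 to 334.1 CPM of the other 8. Over the 12 libraries Pearson's r between log2 CPM and the share was 0.77 (permutation p = 0.00361, adjusted over 10 genes 0.0361) and Spearman's rho 0.70 (permutation p = 0.0139, adjusted 0.139). Without the 2 libraries farthest from the median share r was 0.63. The permutation over 12 libraries did not hold sex or diet fixed. Among the 6 females alone r was 0.88 (exact permutation p = 0.0194), and among the 6 males alone it was -0.13 (exact permutation p = 0.774). Adjusted over the 20 relations within a sex, neither passed (lowest adjusted exact permutation p 0.389), and the difference between the sexes was not tested. The share ran from 0.646% to 1.91% in females and from 0.65% to 1.06% in males. Por (r = 0.71, rho = 0.62) and, in the other direction, Cyp2c29 (r = -0.68, rho = -0.58) and Cyp2c55 (r = -0.67, rho = -0.45) also moved with the share over all 12 libraries, with permutation p adjusted over 10 genes of 0.044 each for r and 0.171, 0.171 and 0.371 for rho. Without the same 2 libraries r was 0.54 for Por, -0.47 for Cyp2c29 and -0.49 for Cyp2c55. In females alone r was 0.70 for Por, -0.80 for Cyp2c29 and -0.76 for Cyp2c55 (exact permutation p = 0.106, 0.0542 and 0.114), and in males alone 0.47, -0.13 and 0.37 (exact permutation p = 0.353, 0.826 and 0.469).

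**Figure D3:**
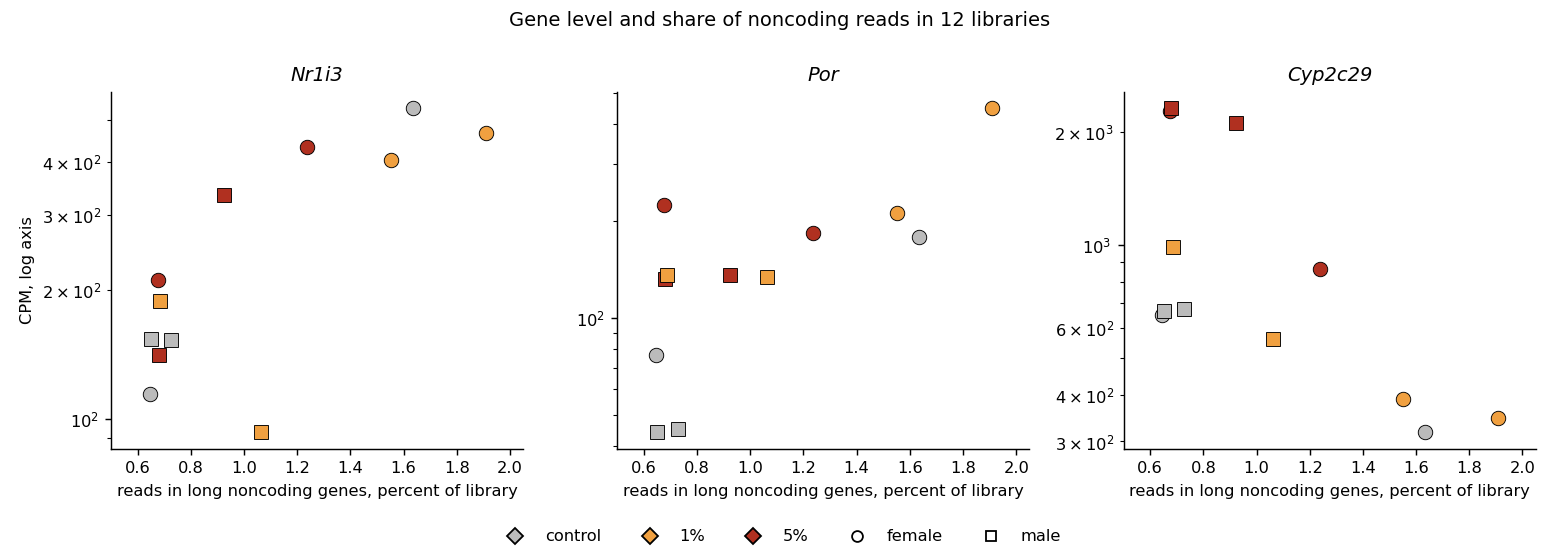
Level of Nr1i3, Por and Cyp2c29 in CPM on a log axis against the percent of each library's reads that fell in long noncoding genes, for 12 libraries coloured by diet with circles for females and squares for males. The 4 libraries above 1.2% have 403.5 to 532.9 CPM of Nr1i3, and the other 8 have 93.0 to 334.1 CPM.

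Most Nr1i3 reads were assigned to long or unspliced transcripts. The 3 short coding transcripts of the GENCODE annotation took 2.61% to 23.0% of Nr1i3 reads in control libraries, 1.75% to 9.73% in 1% libraries and 4.56% to 30.3% in 5% libraries. Transcripts annotated with a retained intron took 24.7% to 44.1% over all 12 libraries, and most of the remainder went to 1 long coding transcript. Counted over the short coding transcripts alone, the level was 24.4 ± 7.65 CPM in control, 12.4 ± 5.28 CPM with 1% oil and 37.0 ± 17.3 CPM with 5% oil (SD, n = 4 each), and the groups overlapped. None of these transcripts passed the test between diets. Over the 10 genes 0 of 24 transcripts tested passed in 5% against control by edgeR (0.0273% of all transcripts did). Transcripts of Nr1i3 share 53.9% to 82.9% of their 31-base windows with transcripts of Tomm40l, a gene of the mitochondrial outer membrane on the opposite strand. Tomm40l itself was counted at 3.94 to 11 CPM. No source used here says if the counting was strand-aware, so the split of reads between the overlapping genes is uncertain.

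**Figure D4:**
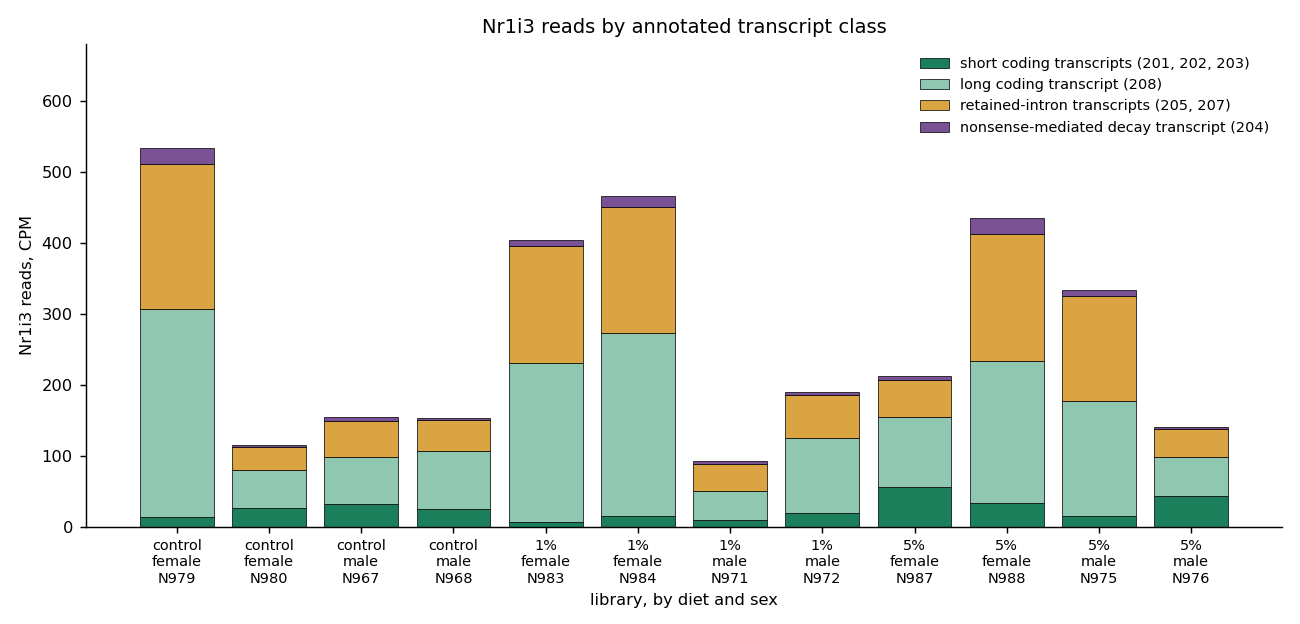
Nr1i3 reads per library in CPM, stacked by annotated transcript class, with libraries ordered by diet and sex. The short coding transcripts make up 1.75% to 30.3% of the reads, and the tall bars consist mainly of the long coding and retained-intron transcripts.

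Por, the electron donor of the P450 enzymes, stood higher with both doses, with an adjusted p just over the threshold. Por had 178.8 and 76.4 CPM in control females and 44.0 and 45.2 CPM in control males, 212.2 and 446.9 CPM in 1% females and 134.0 and 135.7 CPM in 1% males, and 223.6 and 183.9 CPM in 5% females and 135.7 and 131.9 CPM in 5% males. Within each sex every liver of either oil diet was above both control livers. The log2 fold change was 1.14 ± 0.29 for 5% against control (adjusted p = 0.0573) and 1.47 ± 0.29 for 1% against control (adjusted p = 0.0564), and -0.33 ± 0.28 for 5% against 1% (adjusted p = 0.567), by edgeR's quasi-likelihood test. The control female with 178.8 CPM was among the libraries rich in noncoding reads. With the 4 such libraries left out, a choice made after seeing the data, Por was at 1.56 ± 0.15 for 5% oil and 1.59 ± 0.17 for 1% oil. That fit leaves no 1% female, so its 1% value sets males alone against controls of both sexes. Leaving out the control female N979 alone gave an adjusted p of 0.00772 for 5% and 0.00427 for 1% oil, leaving out the 1% female N984 gave 0.0466 for 5% oil, and leaving out the 1% female N983 gave 0.0473 for 1% oil. The other single leave-outs did not bring Por past the threshold: the highest adjusted p came without the control male N968, 0.172 for 5% and 0.208 for 1% oil, and without N984 the 1% value was 1.2 (adjusted p = 0.201). Without sex in the fit the adjusted p was 0.496 for 5% and 0.452 for 1% oil. DESeq2 also called Por in both comparisons (adjusted p = 0.00491 and 0.000149). So did limma voom (adjusted p = 0.0386 for 5% and 0.0479 for 1% oil) and limma on the deposited CPM (0.0239 and 0.0415). Among the 10 genes Por is the one listed in the authors' deposited table, with a log2 fold change of 1.47 and an adjusted p of 0.0278. The contrast is not named there. The fold change is the same as the 1.47 of 1% against control here, while 5% against control was at 1.14.

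Cyp2b10 is shown with its promoter because it rose, and Cyp2b9 and Cyp2b13 because their promoters are nearly the same while their levels in males are not. The windows are the 250 bases before the annotated start, from RefSeq on build GRCm38.p6, plus strand: chr7:25897408-25897657 for Cyp2b10, chr7:26173159-26173408 for Cyp2b9 and chr7:26061245-26061494 for Cyp2b13. Capitals mark AGGTCA, the half-site that many nuclear receptors recognise, and the single bases at which Cyp2b9 and Cyp2b13 differ.
Cyp2b10: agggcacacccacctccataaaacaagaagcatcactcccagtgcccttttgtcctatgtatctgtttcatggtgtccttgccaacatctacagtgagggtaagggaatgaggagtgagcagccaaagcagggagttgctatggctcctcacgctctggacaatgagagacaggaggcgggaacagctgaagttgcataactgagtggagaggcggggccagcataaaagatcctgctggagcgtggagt
Cyp2b9: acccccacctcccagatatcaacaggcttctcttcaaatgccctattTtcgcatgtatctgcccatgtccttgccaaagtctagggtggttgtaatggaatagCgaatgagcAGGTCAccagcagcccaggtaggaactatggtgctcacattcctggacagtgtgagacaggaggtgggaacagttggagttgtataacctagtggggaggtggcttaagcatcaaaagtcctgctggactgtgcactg
Cyp2b13: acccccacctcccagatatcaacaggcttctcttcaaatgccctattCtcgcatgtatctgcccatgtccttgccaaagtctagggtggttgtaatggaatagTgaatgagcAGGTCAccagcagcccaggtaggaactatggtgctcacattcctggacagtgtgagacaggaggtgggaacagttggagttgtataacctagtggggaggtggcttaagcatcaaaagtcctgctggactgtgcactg
The windows of Cyp2b9 and Cyp2b13 were identical at 248 of 250 bases; counted from 1 at the 5′ end, Cyp2b9 first, the differences were T48C and C104T. Both held AGGTCA at -138 to -133 from the start, while the Cyp2b10 window, identical to either at 70.0% of aligned positions, held no match on either strand. The enhancer through which CAR is known to act on Cyp2b10 lies farther upstream than this window reaches. AGGTCA occurred on either strand in 14.0% of 32851 promoter windows of the same length. TTCNNNGAA, the sequence bound by STAT5, which carries the growth hormone signal behind many sex differences of mouse liver, matched in 7.02% of windows and in none of the 9 genes with an entry.

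Cyp2b10, the marker of CAR activity, rose with 5% oil. It had 4.71 and 9.10 CPM in control females and 0.157 and 2.04 CPM in control males, 14.3 and 37.9 CPM in 1% females and 3.07 and 1.68 CPM in 1% males, and 36.1 and 28.4 CPM in 5% females and 7.29 and 10.3 CPM in 5% males. Within each sex both 5% livers were above both control livers, while female controls and 5% males overlapped. The log2 fold change was 2.54 ± 0.51 (adjusted p = 0.0231) for 5% against control, 1.54 ± 0.51 (adjusted p = 0.275) for 1% against control and 1.00 ± 0.46 (adjusted p = 0.279) for 5% against 1%, by edgeR's quasi-likelihood test. The lowest control male rested on 1 read, and the whole gene on 1813 estimated reads over 12 libraries. The main Cyp2b10 transcript shares 21.6% of its 31-base windows with other genes, 14.6% with Cyp2b13, which is far more abundant in females. The division of reads between them is thus an estimate, and its part in the Cyp2b10 values by diet or sex was not tested. The call for 5% oil was lost when either control female or the 5% libraries N987 (female) or N976 (male) were left out (adjusted p = 0.0571 to 0.0771) and without sex in the fit (adjusted p = 0.459). Without the 1% female N984 the 1% value was 0.93 and that of 5% against 1% was 1.56. Without the 4 libraries rich in noncoding reads, which leaves no 1% female, they were 0.68 and 1.75. Without sex in the fit 5% against 1% was at 0.56 (adjusted p = 0.836).

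Cyp2b9 and Cyp2b13 showed no detectable change with diet in females. Cyp2b9 had 419.0 and 489.0 CPM in control females, 454.7 and 466.4 CPM in 1% females and 412.5 and 333.4 CPM in 5% females. Both 5% females were thus below both females of each other diet. Within females 5% against control was at -0.28 ± 0.99 (adjusted p = 0.963 by edgeR's quasi-likelihood test). The male levels of Cyp2b9 were 122.4 and 164.1 CPM in controls, 4.87 and 136.8 CPM with 1% oil and 132.9 and 124.2 CPM with 5% oil. The 4.87 CPM came from 57 reads in the 1% male N971, which stood apart from the other 5 males at 122.4 to 164.1 CPM. Cyp2b13 had 288.5 and 313.5 CPM in control females, 203.2 and 328.4 CPM in 1% females and 324.4 and 237.2 CPM in 5% females. In males it had 2.35 and 7.41 CPM in controls, 0 and 1.28 CPM with 1% oil and 0.81 and 0.43 CPM with 5% oil, on 110.7 estimated reads in 6 libraries. For Cyp2b13 the male controls were thus above the males on either dose, and the female groups overlapped.

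The log2 fold change of 5% against control was -0.21 ± 0.67 for Cyp2b9 (adjusted p = 0.942) and -1.24 ± 0.71 for Cyp2b13 (adjusted p = 0.485) by edgeR's quasi-likelihood test. Within males alone Cyp2b13 was at -3.10 ± 0.87 (adjusted p = 0.384) for 5% against control and at -3.03 ± 0.88 (adjusted p = 0.488) for 1% against control. These values lean on the control male N968, which held 68.6 of the 110.7 male reads. Without it Cyp2b13 was at -0.49 for 5% against control over both sexes (adjusted p = 0.822) and at -1.98 within males. With limma voom the value over both sexes was -0.495 (adjusted p = 0.731), and without sex in the fit -0.12 (adjusted p = 0.995). Cyp2b9 and Cyp2b13 transcripts were identical at 89.2% of aligned positions and shared 26.1% and 40.8% of their 31-base windows with other genes, so low values of Cyp2b13 in males can hold reads of a close copy.

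Cyp2c29 was the gene of the group with the highest level per length in the 5% livers, at 1060 ± 387 CPM per kilobase of transcript, and in controls, at 324 ± 98.1 (SD, n = 4 each). Its promoter is shown because it rose against both other diets: chr19:39286835-39287084 on GRCm38.p6, plus strand, 250 bases before the start from RefSeq, with AGGTCA and TATAAA in capitals.
Cyp2c29: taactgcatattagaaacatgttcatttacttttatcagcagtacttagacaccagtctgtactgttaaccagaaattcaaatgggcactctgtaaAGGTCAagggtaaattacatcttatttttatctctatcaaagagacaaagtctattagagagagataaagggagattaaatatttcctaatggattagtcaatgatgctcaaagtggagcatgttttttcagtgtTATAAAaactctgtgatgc
AGGTCA stood at -154 to -149 and TATAAA, the core of the TATA box, at -19 to -14. TATAAA occurred on either strand in 12.4% of 32851 windows, and among the 9 genes with an entry also in Cyp2c55. AGTTCA, a variant half-site found in 11.8% of windows, matched in Cyp2c50. No motif match overlapped another.

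Cyp2c29 rose with 5% oil against both other diets. It had 317.1 and 652.9 CPM in control females and 668.6 and 674.3 CPM in control males, 389.3 and 347.3 CPM in 1% females and 560.7 and 991.0 CPM in 1% males, and 2272 and 865.1 CPM in 5% females and 2116 and 2312 CPM in 5% males. Every 5% library exceeded every control library, and 3 of the 4 exceeded the highest 1% library, a male at 991.0 CPM; the exception was the 5% female N988 at 865.1 CPM. The mean was 1891 ± 689 CPM with 5% oil and 578 ± 174 CPM in controls (SD, n = 4 each). The log2 fold change was 1.71 ± 0.31 for 5% against control (adjusted p = 0.0124), 1.79 ± 0.31 for 5% against 1% (adjusted p = 0.0256) and -0.08 ± 0.31 for 1% against control (adjusted p = 0.942), by edgeR's quasi-likelihood test. Per percent of oil the slope was 0.37 ± 0.06 on the log2 scale (adjusted p = 0.00648; 2.23% of all genes passed this trend test), the single slope of the 10 genes that passed. Without the control male N968 the adjusted p of 5% against control was 0.0503, and without sex in the fit 0.066. The call against 1% oil was lost without N976 (5% male), N983 or N984 (1% females) or N971 (1% male), with adjusted p of 0.0777 to 0.0933, and without sex in the fit (adjusted p = 0.101).

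Cyp2c37, Cyp2c50 and Cyp2c54, close copies that lie at 92.2% to 95.2% transcript identity to each other, stood higher with 5% oil without passing the test. Cyp2c37 had 616.3 and 375.4 CPM in control females and 139.7 and 275.8 CPM in control males, 664.6 and 733.3 CPM in 1% females and 54.7 and 199.7 CPM in 1% males, and 1098 and 693.4 CPM in 5% females and 407.8 and 392.3 CPM in 5% males. Cyp2c50 had 320.4 and 348.8 CPM in control females and 380.7 and 649.4 CPM in control males, 368.1 and 392.7 CPM in 1% females and 209.6 and 591.9 CPM in 1% males, and 662.7 and 433.3 CPM in 5% females and 923.7 and 776.8 CPM in 5% males. Cyp2c54 had 99.7 and 59.5 CPM in control females and 78.5 and 202.8 CPM in control males, 145.5 and 87.1 CPM in 1% females and 69.5 and 183.7 CPM in 1% males, and 172.7 and 121.7 CPM in 5% females and 435.1 and 349.2 CPM in 5% males. In all 3 genes the 5% livers were above the controls within each sex, and the 1% libraries overlapped the controls over all libraries. Within females alone both 1% livers were above both controls in Cyp2c37 and Cyp2c50. The log2 fold changes of 5% against control were 0.91 ± 0.41 for Cyp2c37 (adjusted p = 0.335), 0.72 ± 0.29 for Cyp2c50 (adjusted p = 0.259) and 1.22 ± 0.40 for Cyp2c54 (adjusted p = 0.154) by edgeR's quasi-likelihood test. DESeq2 called Cyp2c54 (adjusted p = 0.0307). These 3 genes share 42.3% to 47.9% of their 31-base windows with other genes, so the division of reads among them is an estimate.

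Cyp2c55, an enzyme of the same family with the lowest level per length of the 10 genes in 5% livers (3.10 ± 0.45 CPM per kilobase, SD, n = 4), had 1.63 and 3.80 CPM in control females and 2.35 and 4.19 CPM in control males, 1.31 and 2.19 CPM in 1% females and 5.89 and 5.82 CPM in 1% males, and 6.37 and 5.15 CPM in 5% females and 5.90 and 7.32 CPM in 5% males. All 4 libraries on 5% oil were above all 4 controls. The log2 fold change was 1.03 ± 0.37 (adjusted p = 0.188 by edgeR's quasi-likelihood test), on 601.5 estimated reads over 12 libraries. With 1% oil the males were above their controls, while the females overlapped theirs. The difference between the sexes in the 1% response was -1.56 ± 0.64 (unadjusted p = 0.0323, adjusted p = 1 by edgeR), so it did not pass.

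Within a single sex no gene of the 10 passed the test for 5% against control, where 1.85% of all genes passed in females and 0.181% in males. For 1% against control none of the 10 passed either, where 0.029% of all genes passed in females and 0.0724% in males. Cyp2c29 was at 1.69 ± 0.46 in females (adjusted p = 0.0925) and 1.72 ± 0.46 in males (adjusted p = 0.297), and Cyp2b10 at 2.19 ± 0.61 in females (adjusted p = 0.108) and 2.85 ± 0.74 in males (adjusted p = 0.284), by edgeR's quasi-likelihood test. Por was at 0.68 ± 0.39 in females (adjusted p = 0.523) and 1.58 ± 0.40 in males (adjusted p = 0.240). With 2 libraries per group these values rest on single libraries. In females Cyp2c29 was at 0.83 without N987 and passed without N988 (2.23, adjusted p = 0.036), and Por was at 0.21 without N980 and 1.42 without N979. In males Cyp2b10 was at 5.74 without N968, and Por passed without the control female N980 (1.59, adjusted p = 0.0491). For 1% oil in females Por passed without N979 (2.11, adjusted p = 0.0336). The sexes were compared directly by the interaction term, which none of the 13814 genes tested passed at either dose by edgeR, while 645 genes (5% oil) and 517 genes (1% oil) had an unadjusted p under 0.05. Cyp2b13 had the lowest p of the 10 for 5% oil, at 3.0 ± 1.06 (unadjusted p = 0.0179, adjusted p = 0.865), and at 1.90 without the control male N968. Without the filter on low counts the interaction was called in 229 genes for 5% oil and 109 for 1% oil, 1 of the 10 in each.

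Between the sexes 4 of the 10 genes differed, all higher in females: Cyp2b13, Cyp2b10, Cyp2c37 and Por passed the test of female against male livers over the 3 diets, as did 8.94% of all genes tested, 3.6% upward in females. Cyp2b13 was 7.54 ± 0.69 higher in females on the log2 scale (adjusted p = 0.000118), at 203.2 to 328.4 CPM in 6 females and 0 to 7.41 CPM in 6 males. Cyp2b10 was 2.56 ± 0.41 higher (adjusted p = 0.00287), with medians of 21.4 CPM in females and 2.56 CPM in males. Cyp2c37 was 1.62 ± 0.34 higher (adjusted p = 0.0153), with medians of 679 CPM in females and 238 CPM in males. Por was 1.13 ± 0.24 higher (adjusted p = 0.0116), with medians of 198 CPM in females and 133 CPM in males. All 4 values are from edgeR's quasi-likelihood test with diet in the fit.

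In Cyp2b9 and Cyp2b13 every female library was above every male library, as in 1.61% of all genes. Cyp2b9 was 1.96 ± 0.58 higher in females with an adjusted p of 0.0606 by edgeR and 0.0115 by DESeq2; leaving out the 1% male N971 gave 1.62 and an adjusted p of 1.54e-05. Cyp2c29, Cyp2c50, Cyp2c54 and Cyp2c55 had estimates below 0, between -0.79 and -0.44, and did not pass (adjusted p = 0.100 to 0.227), though each passed without 1 library: Cyp2c29 without N987 (0.0205) or N980 (0.0302), Cyp2c50 without N971 (0.0378), Cyp2c54 without N971 (0.040) and Cyp2c55 without N980 (0.0482). Nr1i3 was 1.05 ± 0.40 higher in females (adjusted p = 0.114 by edgeR, 0.0284 without the control female N980, and 0.0242 by DESeq2). Since the 4 libraries rich in noncoding reads are all female, the fit was repeated without them: Nr1i3 then stood at -0.27 ± 0.38 (adjusted p = 0.860), Por remained past the threshold at 0.78 ± 0.15 (adjusted p = 0.0269), and Cyp2b13 (7.35, adjusted p = 0.0636), Cyp2b10 (2.38, adjusted p = 0.0604) and Cyp2c37 (1.19, adjusted p = 0.450) did not pass with 2 females left. In the same fit Cyp2c29 stood at 0.02 and Cyp2c55 at 0.07, no longer below 0, and Cyp2c54 at -1.19 (adjusted p = 0.985, 0.948 and 0.440). Cyp2c37 also lost its call without the control female N979 (1.58, adjusted p = 0.0531).

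**Figure D5:**
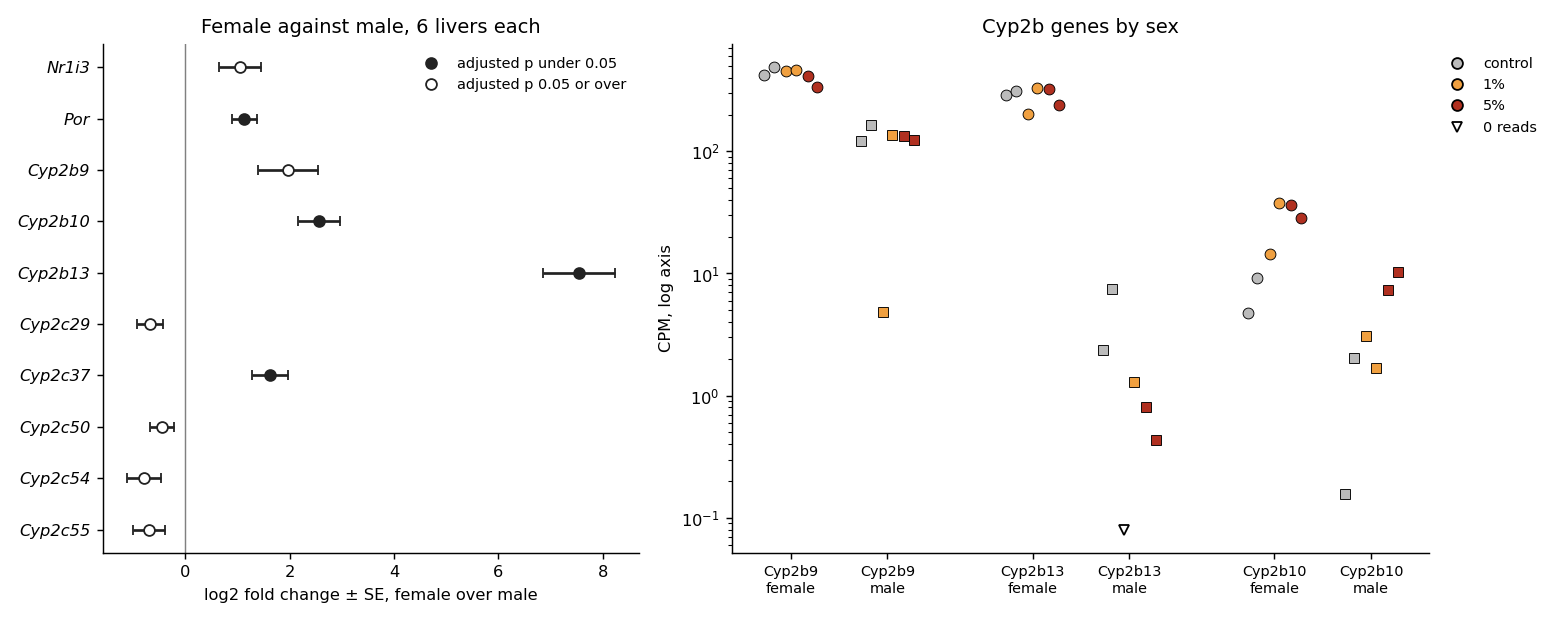
Left, log2 fold change of female over male livers with standard error for each gene, filled where the adjusted p is under 0.05; right, CPM of Cyp2b9, Cyp2b13 and Cyp2b10 by sex on a log axis, coloured by diet, with an open triangle for 0 reads. Cyp2b13 separates the sexes at 203.2 to 328.4 CPM in females and 0 to 7.41 CPM in males, and in Cyp2b9 the 1% male N971 at 4.87 CPM stands below all others.

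Of other genes known as CAR targets, 12 of the 36 that could be tested passed the test of 5% oil against control, and 24 did not. The list held 38 genes outside the 10, among them conjugating enzymes, transporters and the growth and stress genes Myc, Gadd45a and Gadd45b. In it 11 genes rose and 1 fell, where 2.46% of all genes tested passed, 1.19% upward. The median log2 fold change of the list was 0.30, against 0.01 for all genes tested. This list and those below were chosen with earlier results of these data known, so the shares are a description and not separate evidence. The highest-ranked were Abcc4, an exporter of conjugated compounds (2.97 ± 0.27, adjusted p = 8.77e-05), Gstm1 and Gstm3, glutathione transferases (2.09 ± 0.23, adjusted p = 0.000387, and 2.10 ± 0.34, adjusted p = 0.00781), and Tsku, a secreted protein of the liver (2.76 ± 0.40, adjusted p = 0.00572). The gene that fell, named after its value was seen, was Sult1d1, a sulfotransferase, which fell by 0.93 on the log2 scale (adjusted p = 0.0453). With 1% oil none of the 36 passed by edgeR (lowest adjusted p 0.192). Of 29 tested partners and regulators of CAR, none rose and 1 fell, Ppargc1a, a coactivator of fasting metabolism (-1.64 ± 0.38, adjusted p = 0.0425). Of 17 tested genes of heme metabolism and P450 electron transfer, 1 rose, Blvrb, a biliverdin reductase (1.13 ± 0.27, adjusted p = 0.0435). Single calls in lists of this size are near the 2.46% of all genes that passed.

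The remaining Cyp2b and Cyp2c genes showed no call between 5% oil and control. Of 13 symbols 12 were in the table and 8 could be tested: Cyp2c40 (1.33 ± 0.63), Cyp2c69 (0.82 ± 0.64), Cyp2c67 (0.51 ± 0.19), Cyp2c23 (0.26 ± 0.19), Cyp2c68 (0.22 ± 0.18), Cyp2c39 (-0.09 ± 0.34), Cyp2c38 (-0.15 ± 0.32) and Cyp2c70 (-0.31 ± 0.27), with adjusted p of 0.222 to 0.950 by edgeR. Cyp2b19, Cyp2b23, Cyp2c65 and Cyp2c66 were too low to test. By sex, 4 were higher in females, among them Cyp2c69 (7.69 ± 0.63, adjusted p = 4.63e-05) and Cyp2c40 (6.28 ± 0.60, adjusted p = 0.000152), and Cyp2c67 was lower (-0.76 ± 0.16, adjusted p = 0.0116).

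Among sex-biased liver genes 7 of 29 female-biased and 4 of 28 tested male-biased genes passed the test of 5% oil against control, where 2.46% of all genes tested passed. Of the female-biased genes 4 rose and 3 fell. Abcc4, which is in this list too, Acot3, an acyl-CoA thioesterase (2.18 ± 0.33, adjusted p = 0.00572), and Cyp2a4, a steroid hydroxylase (2.69 ± 0.42, adjusted p = 0.00712), rose. Ntrk2, a neurotrophin receptor, fell (-4.66 ± 0.63, adjusted p = 0.00342). Ntrk2 did not pass as higher in females in these libraries (0.54 ± 0.47, adjusted p = 0.469 by edgeR's test of female against male). The other genes that fell, named after their values were seen, were the close copies Cyp3a41a (-6.65 ± 1.00, adjusted p = 0.00824) and Cyp3a44 (-6.18 ± 0.98, adjusted p = 0.0101), for which the split of reads is uncertain. Of the male-biased genes 1 rose, Gstp1, a glutathione transferase (1.75 ± 0.38, adjusted p = 0.0319), and 3 fell: C8a, a complement component (-1.27 ± 0.23, adjusted p = 0.00965), Mup3, a major urinary protein (-2.09 ± 0.47, adjusted p = 0.0434), and Hsd3b5, a steroid dehydrogenase (-2.0 ± 0.48, adjusted p = 0.0488). Of 14 pericentral genes, of the zone around the central vein where CAR targets are typically strongest, none rose and 2 fell, Lect2, a secreted hepatocyte protein (-1.22 ± 0.21, adjusted p = 0.00911), and Gulo, an enzyme of vitamin C synthesis (-0.77 ± 0.18, adjusted p = 0.038). Of 14 periportal genes none passed upward and 1 fell, Ass1, an enzyme of the urea cycle (-1.32 ± 0.22, adjusted p = 0.00646). The median log2 fold change was -0.09 for the female-biased and -0.70 for the male-biased list, against 0.01 for all genes tested. It was -0.35 for the pericentral and -0.50 for the periportal list. Estimates above 0 numbered 14 of 29, 10 of 28, 4 of 14 and 2 of 14 in these lists.

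The clock-output genes Dbp, Tef and Hlf, transcription factors of daily rhythm known to act on Por and Nr1i3 in mouse liver, were looked at after their values were seen. Dbp had 0.363 and 1.10 CPM in control females and 0.157 and 0.644 CPM in control males, 1.62 and 19.99 CPM in 1% females and 14.7 and 17.3 CPM in 1% males, and 28.9 and 39.98 CPM in 5% females and 12.7 and 24.1 CPM in 5% males. Every library of either oil diet was above every control library. With 5% oil Dbp rose by 5.36 ± 0.83 (adjusted p = 0.00919), Tef by 1.79 ± 0.29 (adjusted p = 0.00671) and Hlf by 1.14 ± 0.22 (adjusted p = 0.0126) on the log2 scale by edgeR's quasi-likelihood test. With 1% oil Tef rose by 1.65 ± 0.29 (adjusted p = 0.0292), while Dbp (4.42 ± 0.84, adjusted p = 0.0718) and Hlf (0.43 ± 0.22, adjusted p = 0.482) did not pass. The time of day at collection is not given in the sources used here, and the part of daily rhythm in the values of Por and the P450 genes was not tested.

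Over the 12 libraries the 10 genes fell into loose groups by Pearson's r of log2 CPM, given as a description because the points share libraries, sex and diet. Cyp2c50 and Cyp2c54, which also share sequence, were at 0.90, Cyp2b9 and Cyp2c37 at 0.88, Cyp2b9 and Cyp2b13 at 0.82, Cyp2c29 and Cyp2c55 at 0.82, and Por and Cyp2b10 at 0.79. Nr1i3 was at 0.64 with Por and -0.30 with Cyp2c29. Among 10543 genes the closest to Cyp2c29 were Akr1c19 (0.97), Pcbp1 (0.96) and Stbd1 (0.95), and the closest to Cyp2b10 were Adarb1, Rpl32 and Pla2g7 (each 0.90). The closest to Cyp2b9 were Mbl2 (0.93), Cyp2c38 (0.93) and Smoc1 (0.90), and to Nr1i3 Prpf3 (0.91), Zbed4 (0.91) and Hsf1 (0.90).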

How the data were processed

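RNA from 12 mouse livers was sequenced as stranded polyA libraries, per the labels' protocols. The submitters' processing notes name kallisto, edgeR, limma and build GRCm39. The deposited gene and transcript tables hold estimated counts that need not be whole (11.66% of gene values were not), and they were rounded here. The authors' CPM table covers 11339 genes and served as an alternative on the log2(CPM + 0.5) scale. The authors' deposited table of 261 genes lists p-values and adjusted p-values beside log2 fold changes and does not name its contrast; 12 per-library columns in it were not used. Symbols were found for 48845 of 49398 gene IDs.

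Counts were scaled by TMM, filtered with filterByExpr (13814 genes kept) and tested with edgeR 4.0.16 in R 4.3.3 (robust quasi-likelihood, diet plus sex, 2-sided, Benjamini-Hochberg over all genes tested, threshold 0.05). A fit of the 6 diet and sex groups gave within-sex and interaction tests. The SE given with each edgeR value was derived from the test, as the absolute log2 fold change divided by the square root of the F statistic. DESeq2 1.42.0 and limma 3.58.1 were alternatives. The code was tested on simulated data. Transcript and promoter sequences came from GENCODE and RefSeq on GRCm38, another build than the counts, so no gene coordinates are given beyond promoter windows; 9 of 10 genes had a promoter entry, Cyp2c54 being the other. All 10 genes are described whatever their result; from each other list up to 4 calls with the lowest p-values are named, all of the other Cyp2b and Cyp2c genes, and any further gene is marked as named after its value was seen. The 10 genes and the lists were chosen with earlier results of these data known. P-values measure the spread between libraries labelled as separate animals, and depth limits Cyp2b10, Cyp2c55 and male Cyp2b13 most.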

Additional observations from a re-analysis of the deposited data

Results flagged for a closer look

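In each diet of 4 libraries, the highest and lowest library of each gene was checked for a gap to its nearest neighbour above Dixon's critical share of the group's range. This was done in 30 groups, and chance marks about 1 in 20. Nr1i3 in the control female N979 was at 532.9 CPM, far above the other 3 controls at 114.4 to 153.8 CPM. Cyp2c29 in the same library was at 317.1 CPM, far below the other 3 controls at 652.9 to 674.3 CPM. Cyp2c29 in the 5% female N988 was at 865.1 CPM, far below the other 3 libraries of that diet at 2116 to 2312 CPM. Both libraries are among the 4 with the highest share of noncoding reads, and the part of that share in these values was not tested.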

How the results depend on the processing

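Over 1294 values of the 10 genes under other settings, 1174 kept direction and side of the threshold, 68 newly passed, 16 no longer passed and 36 changed sign. The cause was not tested. At the settings used throughout, few calls could be lost: 2 of the 10 genes in 5% against control and 1 in 5% against 1%. The slope added 1 and female against male 4, and the other comparisons had none. No paired analysis was possible because no replicate number is shared between groups. Leaving out a library leaves 1 diet and sex group with a single library, assumed to vary like the others. Leaving out the 4 libraries richest in noncoding reads was chosen after seeing the data and leaves no 1% female.

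For 5% against control, 340 genes and 2 of the 10 passed; without a filter 1011 and 8, with DESeq2 749 and 4, without the sex term 107 and 0. Leaving out 1 library gave 143 to 497 genes, 1 to 3 of the 10, and Nr1i3 at -0.0851 to 0.79. For 1% against control, 31 and 0 passed. Without a filter it was 649 and 3, with the stricter filter 50 genes, with DESeq2 266 and 1 and with limma on CPM 54 and 1. With voom it was 42 and 1, and without the sex term 10 genes with Cyp2c37 at 0.23. Without the 4 libraries 1 of the 10 passed, and Nr1i3 was at -0.0761, Cyp2c29 at 0.23 and Cyp2c54 at -0.14. Leaving out 1 library gave 13 to 176 genes, 0 to 1 of the 10, Nr1i3 at -0.12 to 0.70, Cyp2b9 at -0.865 to 0.00207, Cyp2c29 at -0.35 to 0.19, Cyp2c37 at -0.24 to 0.31, Cyp2c50 at -0.285 to 0.20, Cyp2c54 at -0.0711 to 0.54 and Cyp2c55 at -0.0407 to 0.53.

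For 5% against 1%, 184 and 1 passed; without a filter 1276 and 5, with DESeq2 699 genes, with limma on CPM 281, without the 4 libraries 42, without the sex term 8 and 0, with Nr1i3 at -0.0389 and Cyp2b9 at -0.0829. With upper quartile factors Cyp2b13 was at -0.00117. Leaving out 1 library gave 9 to 605 genes, 0 to 1 of the 10, Nr1i3 at -0.24 to 0.43, Cyp2b9 at -0.21 to 0.67 and Cyp2b13 at -0.30 to 0.49. For the slope per percent of oil, 308 and 1 passed; without a filter 1108 and 7, with DESeq2 733 and 3, without the sex term 124 genes, without the 4 libraries 80 and 2, with voom 2 and with limma on CPM 4 of the 10. Cyp2b9 was at 0.0421 with voom, 0.0671 with limma on CPM and 0.000622 without the 4 libraries. Leaving out 1 library gave 84 to 444 genes, 1 to 2 of the 10, Nr1i3 at -0.0289 to 0.12 and Cyp2b9 at -0.0441 to 0.0167.

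For female against male, 1235 and 4 passed; without a filter 2375 and 8, with DESeq2 2079 genes, without the 4 libraries 155 and 1, with Nr1i3 at -0.27, Cyp2c29 at 0.0213 and Cyp2c55 at 0.0729. Leaving out 1 library gave 620 to 2409 genes and 3 to 7 of the 10. Within females, 5% against control had 255 genes and 0 of the 10, without a filter 881 and 2, and leaving out 1 library 77 to 288 and 0 to 1, with Cyp2b13 at -0.34 to 0.11. Within males it had 25 genes, without a filter 323 and 5, and leaving out 1 library 0 to 53 and 0 to 1. Within females, 1% against control had 4 genes, without a filter 386 and 2, and leaving out 1 library 0 to 100 and 0 to 1. Within males it had 10 genes, without a filter 326 and 2, and leaving out 1 library 0 to 30 and 0 to 1. The sex difference in the response had 0 genes at either dose, without a filter 229 and 1 for 5% oil and 109 and 1 for 1% oil, and leaving out 1 library 0 to 1 genes and 0 to 1 of the 10 for 1% oil.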

Other observations

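Cyp2c40 and Cyp2c69, female-biased members of the Cyp2c family, were low in males of every diet but higher with 5% oil. Cyp2c40 had 30.7 and 21.4 CPM in 5% males, against 2.98 and 5.58 CPM in control males. Cyp2c69 had 8.10 and 5.10 CPM in 5% males, against 0.784 and 1.93 CPM in control males. In females Cyp2c40 overlapped between these diets, while Cyp2c69 had 423.8 and 406.4 CPM in 5% females, against 613.2 and 473.6 CPM in control females. The values were picked after they were seen, and no test within males is given. Sequence shared with other Cyp2c genes was not measured for Cyp2c40 or Cyp2c69. The part of reads from close copies in the low male values was not tested. Over both sexes neither gene passed for 5% oil against control by edgeR's quasi-likelihood test (adjusted p = 0.369 for Cyp2c40 and 0.644 for Cyp2c69).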
